A study of Homo sapiens with 83 samples.

Results

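A set of 10 genes of polyamine metabolism was followed through 83 RNA-seq libraries of neuroblastoma cells in which N-MYC was either active or inactive. They were taken from the deposited table by symbol, ODC1, AMD1, SRM, SMS, SAT1, SMOX, PAOX, AZIN1, OAZ1 and OAZ2, which makes 10 of the 60237 genes listed. The cells were SHEP and SKNAS, established human neuroblastoma lines that both overexpress N-MYC-ER, in which N-MYC is joined to the hormone-binding part of the estrogen receptor, so the control cells carry it too. In MYC-ON, 4-hydroxytamoxifen (4OHT) brought the fusion into the nucleus, and in MYC-OFF the cells had the ethanol vehicle. All cells then had dexamethasone, which sets the molecular clocks of the culture to a common phase, and RNA was taken every 4 h from circadian time (CT) 24, that is 24 h after dexamethasone. SHEP gave 28 MYC-OFF and 28 MYC-ON libraries, from 2 replicate experiments called series 1 and series 2 here, each with 14 time points to CT76. SKNAS gave 14 MYC-OFF libraries to CT76 and 13 MYC-ON libraries to CT72, from 1 experiment per condition. The study asked how active MYC changes the level and the oscillation of transcripts.

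Putrescine, spermidine and spermine are small positively charged molecules that bind nucleic acids and that dividing cells need. Ornithine decarboxylase (ODC1) makes putrescine, S-adenosylmethionine decarboxylase (AMD1) supplies the aminopropyl groups, and the synthases SRM and SMS add these to form spermidine and then spermine. The acetyltransferase SAT1 and the oxidases PAOX and SMOX run the pathway backwards. Antizymes (OAZ1, OAZ2) bind the ODC protein and send it to the proteasome, and the antizyme inhibitor AZIN1 takes the antizyme away from it. ODC1 is a textbook target of MYC, which binds the E-box CACGTG together with its partner MAX.

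The letters at the 5′ ends of ODC1 and SRM are shown because these genes carry that E-box and were higher in MYC-ON in both lines. Sequences came from the RefSeq promoter table (GRCh38.p14, 250 bases before to 50 after a transcript start), which matched 7 of the 10 genes, with more than 1 start for ODC1 and AMD1. SMOX, PAOX and AZIN1 are not in the table. CACGTG reads the same on both strands. It stood in windows of 2 of those 7 genes, ODC1 and SRM, against 8.77% of the 27305 genes with a window and 7.26% of the 35116 windows. The ODC1 window at the start at 10448327 held none. The E-boxes of ODC1 were downstream of that start, in the window of a start at 10448012, and the run shown for it lies in the first intron of the longest gene model. A further E-box overlaps an untranslated exon of shorter transcripts of the gene. That of SRM began at -199 from its start, outside any exon. Capitals mark CACGTG, and each run is written 5′ to 3′ on the − strand. The windows of AMD1, SMS, SAT1, OAZ1 and OAZ2 held no CACGTG, which says only that these letters are not there. No binding was measured.
ODC1, first intron, chr2:10448015-10448120: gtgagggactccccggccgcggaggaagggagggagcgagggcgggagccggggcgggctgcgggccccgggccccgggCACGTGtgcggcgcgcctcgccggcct
ODC1, further E-box, chr2:10447990-10448019: ggcctgcggagaCACGTGgtcgccgagcgg
SRM, promoter, chr1:11060021-11060268: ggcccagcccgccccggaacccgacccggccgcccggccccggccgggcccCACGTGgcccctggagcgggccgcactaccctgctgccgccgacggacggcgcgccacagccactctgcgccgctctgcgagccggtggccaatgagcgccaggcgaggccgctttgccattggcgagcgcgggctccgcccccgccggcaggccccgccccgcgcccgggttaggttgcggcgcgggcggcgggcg

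Levels are in TPM, transcript abundances divided by transcript length and scaled to the same total in every library, so the read depth of each library is unknown and no counting error can be given. In such bulk samples fewer cells expressing a gene and less RNA per cell cannot be told apart. Of 6 mesenchymal markers of neuroblastoma, 5 in SHEP MYC-OFF and all 6 in the other groups reached a group mean of 1 TPM, and they summed to 2960 to 4840 TPM in SHEP and 639 to 2590 TPM in SKNAS, most of it VIM. They did not move together with the condition. FN1 had a median of 364.0 TPM in SHEP MYC-OFF and 69.29 TPM in MYC-ON, and 15.06 and 4.197 TPM in SKNAS. PRRX1 had medians of 0.5006 and 3.729 TPM in SHEP and 71.83 and 45.4 TPM in SKNAS. For VIM they were 3393 and 3425 TPM in SHEP and 1576 and 1794 TPM in SKNAS. The medians of TWIST1, YAP1 and SNAI2 were lower in MYC-ON in both lines. Of 6 adrenergic markers, 2 in SHEP and 3 in SKNAS reached that mean, and the summed level in SKNAS was 244 to 556 TPM in MYC-OFF against 75.6 to 232 TPM in MYC-ON. In SHEP the sum went the other way, from 27.1 to 43.2 TPM in MYC-OFF (median 32.1) to 36.7 to 54.2 TPM in MYC-ON (median 45.0). The leukocyte gene PTPRC was at 13.03 to 132 TPM in SKNAS MYC-OFF and 3.13 to 59.7 TPM in SKNAS MYC-ON, with CD3E listed at 0 in every SKNAS library. Epithelial, endothelial and, in SHEP, leukocyte markers summed to at most 2.55 TPM. The part of these markers in the results was not tested. MYCN, to which RNA of the fusion would be assigned, was at 255 to 688 TPM in SHEP and 13.1 to 1046 TPM in SKNAS, and the fusion is activated as a protein, so its transcript does not check the labels. Of the SHEP libraries, 3, MYC-ON series 2 at CT64, CT68 and CT72, stood apart with 24697 to 25484 genes above 0 TPM. In SKNAS the MYC-OFF library at CT56 did, with 16241 genes above 0 TPM against at least 19305 elsewhere, and with 1.881% of its TPM from mitochondrial genes against at least 3.37%. The SKNAS libraries differed in their median of log2(TPM + 1), which ran from 2.75 to 4.38, and a median of at least 3.8 was reached by 10 of the 14 with vehicle but 3 of the 13 with 4OHT.

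The comparison of MYC-ON with MYC-OFF in SHEP asked which polyamine genes change in level with active N-MYC. The enzymes that make polyamines were higher in MYC-ON, ODC1 above all, while the antizyme gene OAZ2 and the oxidase gene SMOX were lower. A gene was called higher or lower if its p, adjusted by Benjamini-Hochberg over all genes tested, was at most 0.05 and its log2 change at least 0.15 either way, and changes are on the log2(TPM + 1) scale. Of the 9 genes that passed a mean of 1 TPM in SHEP, 6 were called, 4 higher and 2 lower. Much of the transcriptome differed between the conditions in SHEP, where 71.9% of 14362 genes were called, 33.0% higher and 38.9% lower, so the share of the polyamine genes called is near that of all genes. The median log2 change was 0.19 over the 9 genes and -0.04 over all genes tested.

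ODC1 (ENSG00000115758, chromosome 2, 10439968 to 10448327, − strand), the rate-limiting enzyme, was at 99.0, 116.0 and 156.6 TPM (lowest, median and highest of 28) in SHEP MYC-OFF and at 314.7, 519.4 and 701.5 TPM in MYC-ON. The groups did not overlap, and ODC1 was higher in MYC-ON in 28 of 28 pairs of the same series and CT. Non-overlap as such was found for 12.5% of the genes tested in SHEP. The difference was 2.14 (SE 0.04, limma adjusted p = 4.23e-40), or 4.40-fold, and it was 2.13 in series 2 alone and 2.14 in series 1 alone.

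**Figure D1:**
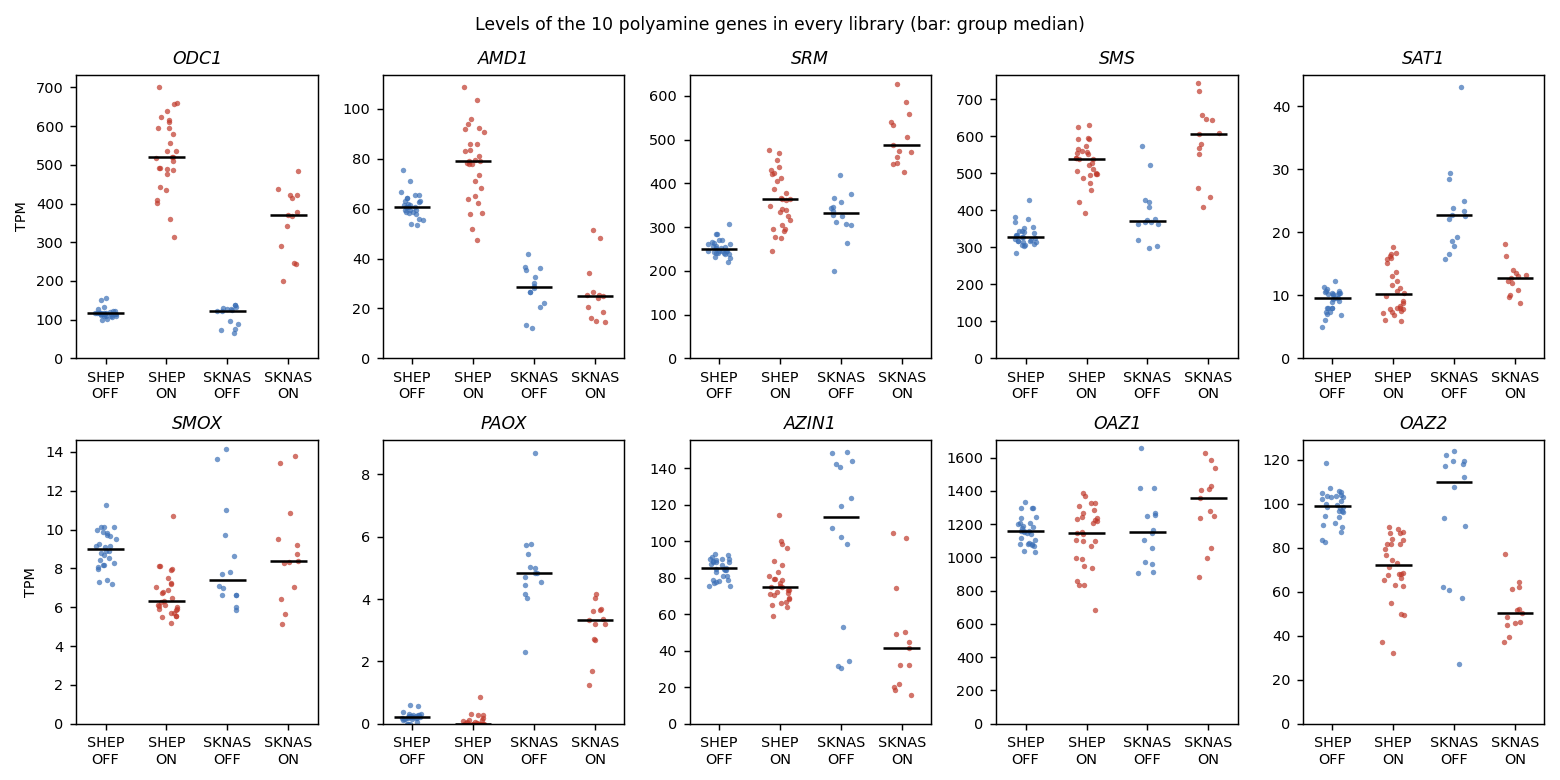
TPM (y axis, from 0, own scale for each gene) of the 10 polyamine genes in every library, by line and condition (x axis), with 28, 28, 14 and 13 points per gene and a bar at the group median. ODC1 is the gene whose MYC-ON libraries lie above all MYC-OFF libraries in both lines, PAOX lies near 0 in SHEP, and OAZ1 is near 1150 TPM in SHEP.

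Downstream of ODC1, the spermine synthase SMS (ENSG00000102172, chromosome X, 21940709 to 21994837, + strand) was at 285.1 to 428.8 TPM in SHEP MYC-OFF (median 327.7) and at 393.9 to 629.7 TPM in MYC-ON (median 538.7). The ranges overlapped only at their ends, and SMS was higher in 28 of 28 pairs. The change was 0.66 (SE 0.03, limma adjusted p = 8.97e-24). The spermidine synthase SRM (ENSG00000116649, chromosome 1, 11054584 to 11060020, − strand) was at 220.0 to 306.3 TPM in MYC-OFF (median 249.1) and at 245.2 to 476.9 TPM in MYC-ON (median 363.1). SRM was also higher in 28 of 28 pairs, by 0.50 (SE 0.04, limma adjusted p = 3.06e-14). AMD1 (ENSG00000123505, chromosome 6, 110874770 to 110898879, + strand) overlapped widely, with 53.4 to 75.7 TPM in MYC-OFF (median 60.7) and 47.4 to 108.9 TPM in MYC-ON (median 79.2). It was higher in 23 of 28 pairs and by 0.32 (SE 0.05, limma adjusted p = 3.11e-07), and the 5 pairs in which it was lower are taken up with the time courses.

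The 3 catabolic genes were expressed far below the synthases in SHEP. SMOX (ENSG00000088826, chromosome 20), which oxidises spermine directly, was at 7.17 to 11.3 TPM in MYC-OFF (median 9.003) and at 5.19 to 10.7 TPM in MYC-ON (median 6.30). It was lower in 27 of 28 pairs, by -0.39 (SE 0.04, limma adjusted p = 8.72e-11). SAT1 (ENSG00000130066, chromosome X, 23783173 to 23786210, + strand), whose acetyl transfer marks spermidine and spermine for export or oxidation, was at 5.04 to 12.3 TPM in MYC-OFF (median 9.54) and at 5.98 to 17.6 TPM in MYC-ON (median 10.1). Averaged over time its change was 0.19 (SE 0.10, limma adjusted p = 0.0704) and was not called. It was higher in 17 and lower in 11 of 28 pairs. PAOX (ENSG00000148832, chromosome 10), the peroxisomal oxidase of acetylated polyamines, did not pass the filter in SHEP. It was listed at 0 in 3 of the 28 MYC-OFF libraries and reached 0.588 TPM there, and in MYC-ON 16 of 28 listed it at 0, with a highest value of 0.853 TPM.

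Among the regulators, OAZ1 (ENSG00000104904, chromosome 19) was the most abundant of the 10 genes by TPM in each group, at 1030 to 1335 TPM in SHEP MYC-OFF (median 1157) and at 686 to 1385 TPM in MYC-ON (median 1150). Its change of -0.06 (95% interval -0.16 to 0.03, limma adjusted p = 0.236) was not called. OAZ2 (ENSG00000180304, chromosome 15, 64687573 to 64703281, − strand) was at 82.6 to 118.3 TPM in MYC-OFF (median 99.0) and at 32.1 to 89.6 TPM in MYC-ON (median 72.3). It was lower in 28 of 28 pairs, by -0.51 (SE 0.07, limma adjusted p = 2.30e-09). Without the 3 libraries that stood apart the OAZ2 change was -0.42. AZIN1 (ENSG00000155096, chromosome 8) had a median of 85.2 TPM in MYC-OFF and 74.9 TPM in MYC-ON. Its change of -0.14 (SE 0.04, limma adjusted p = 0.00262) fell short of the size threshold, and it was -0.19, and called, without the 3 libraries that stood apart (71.1% of genes were called there) or without series 2. Within libraries the TPM of ODC1 was 0.10 times that of OAZ1 in MYC-OFF and 0.469 times in MYC-ON (medians).

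**Figure D2:**
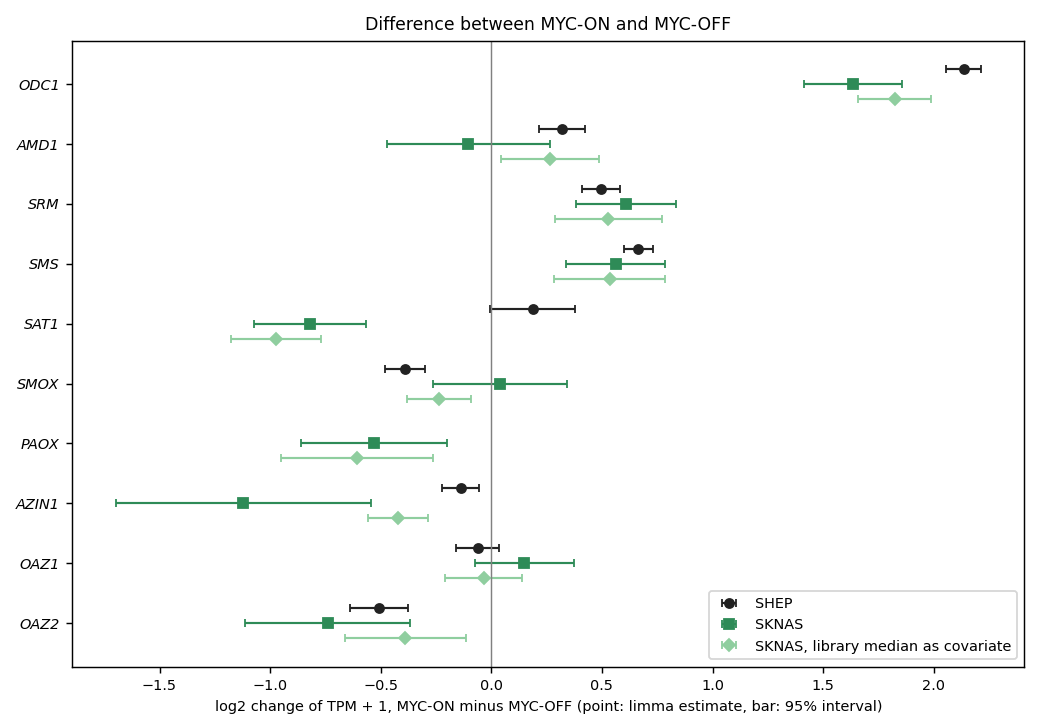
log2 change of TPM + 1 from MYC-OFF to MYC-ON (x axis) for each polyamine gene (y axis), as the limma estimate with its 95% interval, in SHEP, in SKNAS and in SKNAS with the library median as covariate. ODC1, SRM and SMS lie to the right of 0 in all 3 fits and OAZ2 to the left, and SAT1 lies at 0.19 in SHEP and at -0.82 and -0.97 in SKNAS. PAOX was not tested in SHEP.

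The same comparison in SKNAS gave the rise of ODC1, SRM and SMS again and, in place of a small difference, a lower SAT1, with AZIN1, OAZ2 and PAOX lower too. Of the 10 genes 7 were called, 3 higher and 4 lower, against 48.1% of 13886 genes (13.9% higher, 34.2% lower). The median change of all genes tested was -0.29, and of the 10 genes -0.03. With median-of-ratios rescaling the median of all genes was 0.03, and the calls over all genes turned from 1925 higher and 4751 lower to 3829 higher and 3319 lower. The library median as covariate gave 3932 higher and 3598 lower. Both fits remove differences between library medians by design, so they cannot tell where the shift of -0.29 comes from, which was not tested. Values under these fits, and in the 13 libraries of high median alone, are therefore given beside each of the 10 genes. They called 51.5%, 54.2% and 48.6% of genes, in that order. Without the library at CT56, an alternative chosen after seeing the data, 7 genes were again called, against 48.3% of genes.

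In SKNAS, ODC1 was at 66.7, 122.8 and 139.1 TPM (lowest, median and highest of 14) in MYC-OFF and at 200.8, 371.3 and 483.9 TPM (13 libraries) in MYC-ON. The groups did not overlap, as was found for 4.41% of the genes tested. The change was 1.64 (SE 0.10, limma adjusted p = 1.31e-08), or 3.11-fold. With the library median as covariate it was 1.82, with median-of-ratios rescaling 2.01, and over the 13 libraries of high median 1.85. SRM was at 199.6 to 419.5 TPM in MYC-OFF and at 425.9 to 627.2 TPM in MYC-ON, again with no overlap, and the change was 0.61 (SE 0.11, limma adjusted p = 0.000251). It was 0.53 with the covariate, 0.98 after rescaling and 0.49 in the libraries of high median. Its lowest MYC-OFF value is that of CT56. SMS was at 298.8 to 575.2 TPM in MYC-OFF (median 371.5) and at 410.3 to 744.1 TPM in MYC-ON (median 605.4), higher in 12 of 13 pairs of the same CT. Its change was 0.56 (SE 0.11, limma adjusted p = 0.000466), with 0.53 under the covariate, 0.94 after rescaling and 0.71 in the libraries of high median. These 3 genes were called higher in each of those fits.

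AMD1 in SKNAS depended on the scaling. It was at 11.98 to 42.0 TPM in MYC-OFF (median 28.7) and at 14.4 to 51.6 TPM in MYC-ON (median 24.99), and the groups overlapped nearly whole. The change was -0.10 (95% interval -0.47 to 0.26, limma adjusted p = 0.638). The library median as covariate gave 0.26, with a limma adjusted p of 0.0419. Rescaling gave 0.26 as well (0.0395), and the libraries of high median 0.45 (0.0274). In those libraries AMD1 had a median of 31.5 TPM in 10 MYC-OFF libraries and 48.2 TPM in 3 MYC-ON libraries.

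SAT1 was at 15.8 to 43.1 TPM in SKNAS MYC-OFF (median 22.7) and at 8.76 to 18.1 TPM in MYC-ON (median 12.7), lower in 13 of 13 pairs. The highest value is that of the library at CT56, and the next was 29.37 TPM. The ranges overlapped between 15.8 and 18.1 TPM, and did not overlap in the libraries of high median, where that held for 32.4% of genes. The change was -0.82 (SE 0.12, limma adjusted p = 5.04e-05), with -0.97 under the covariate, -0.76 in the libraries of high median and -0.75 without CT56. After rescaling it was -0.47 and not called (limma adjusted p = 0.0707). PAOX, which SKNAS expressed at 2.30 to 8.68 TPM in MYC-OFF (median 4.84) and 1.25 to 4.15 TPM in MYC-ON (median 3.32), was lower by -0.53 (SE 0.16, limma adjusted p = 0.0114). Its change was -0.61 under the covariate and -0.85 in the libraries of high median, and -0.22 and not called after rescaling. SMOX had medians of 7.40 and 8.36 TPM and a change of 0.04 (95% interval -0.26 to 0.34, limma adjusted p = 0.83), while the covariate gave -0.24 (adjusted p = 0.00846), the libraries of high median -0.26 and rescaling 0.37, the last 2 not called.

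Of the regulators in SKNAS, AZIN1 moved most with the library median. It was at 30.4 to 149 TPM in MYC-OFF (median 113.4) and at 15.8 to 104.7 TPM in MYC-ON (median 41.7). Its 4 MYC-OFF libraries outside the high-median band were at 30.4 to 53.2 TPM, and the other 10 at 98.3 to 149 TPM. The change was -1.12 (SE 0.27, limma adjusted p = 0.00329), but -0.42 with the covariate, -0.45 in the libraries of high median and -0.76 after rescaling, each called lower. OAZ2 had medians of 109.9 and 50.1 TPM and a change of -0.74 (SE 0.18, limma adjusted p = 0.00278), with -0.39 under the covariate, -0.37 after rescaling and -0.92 in the libraries of high median. OAZ1 was at 906 to 1659 TPM in MYC-OFF and 884 to 1626 TPM in MYC-ON, and its change of 0.15 (95% interval -0.07 to 0.37, limma adjusted p = 0.249) was not called. It was -0.03 with the covariate, -0.14 in the libraries of high median and 0.53 after rescaling, none of them called.

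**Figure D3:**
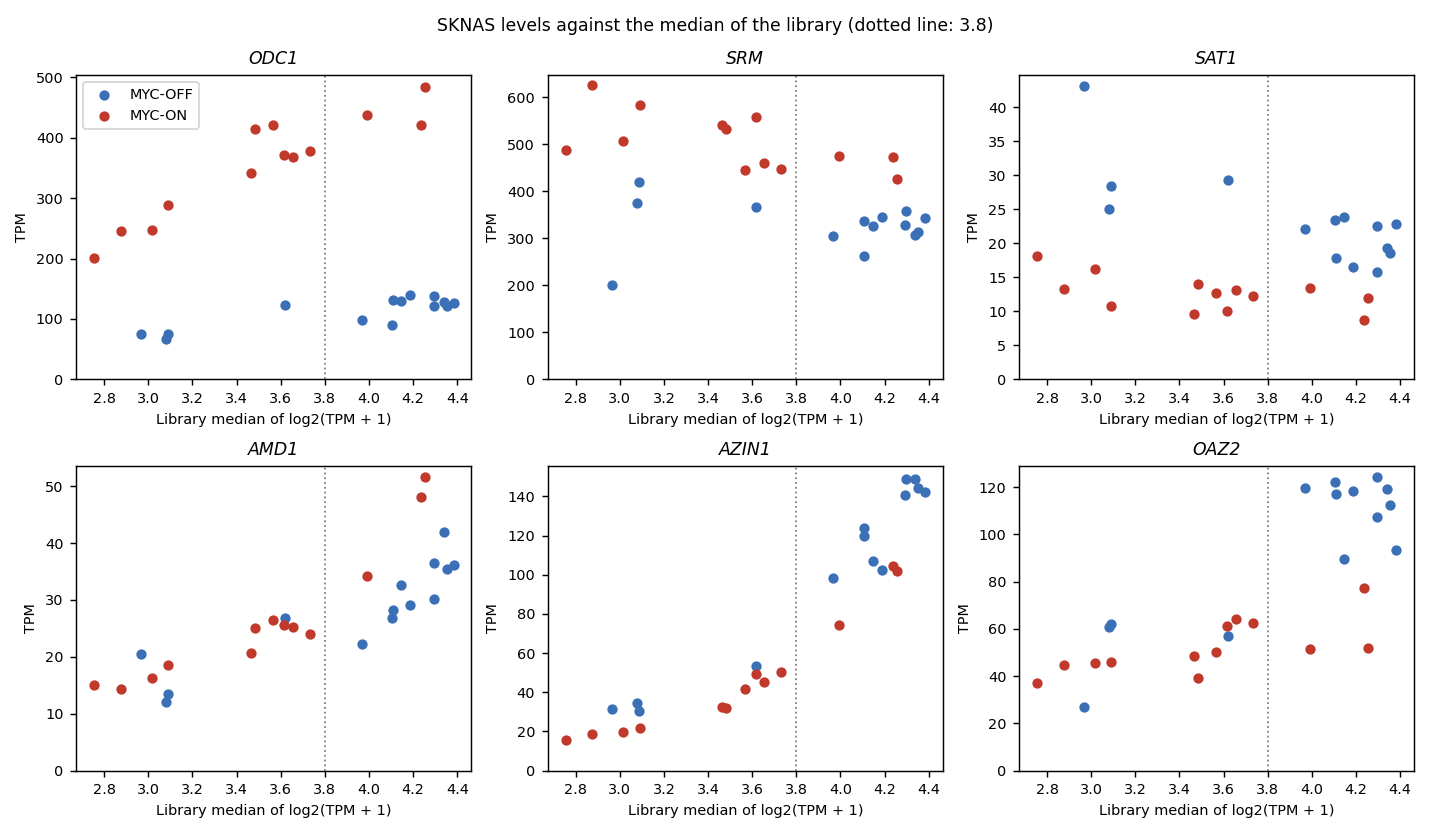
TPM (y axis, from 0) of 6 polyamine genes in the 27 SKNAS libraries against the library's median of log2(TPM + 1) (x axis), with a dotted line at 3.8. At a given median the MYC-ON points of ODC1 lie above the MYC-OFF points and those of SAT1 below them, while AZIN1 and AMD1 climb with the median in both conditions.

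The difference of the MYC effect between the lines, SKNAS minus SHEP, was tested as an interaction over the 83 libraries. Of the 10 genes 6 were called, against 51.5% of 14870 genes (with a median of -0.22 over all genes). SAT1 differed by -1.01 (SE 0.16, limma adjusted p = 6.76e-07). Its SHEP side is an average over time of an effect that changed sign between the early and the late hours, as the time courses show. The difference for AZIN1 was -0.98 (SE 0.18), with a limma adjusted p of 8.22e-06. With the library median as covariate, the difference of SAT1 was -1.19 and that of AZIN1 -0.40, and both were called (47.1% of genes were). The rise of ODC1 was smaller in SKNAS by -0.50 (SE 0.08, limma adjusted p = 1.75e-06), and by -0.33 with the covariate, -0.22 after rescaling and -0.29 in the libraries of high median. SMOX differed by 0.43 (SE 0.10, limma adjusted p = 0.000385), by 0.19 with the covariate, and by 0.13 in the libraries of high median, where it was not called and 34.7% of genes were. AMD1 differed by -0.42, but by -0.15 after rescaling and -0.10 with the covariate, and by 0.13 in the libraries of high median, none of them called. PAOX differed by -0.36, and by -0.14 and without a call after rescaling. It passed the filter only through SKNAS, its SHEP values were all under 1 TPM, and with a pseudocount of 0.1 the difference took the other sign. Its call therefore does not test a difference between the lines. With either SHEP series left out, the differences of AMD1 (-0.40 and -0.45) and PAOX (-0.35 and -0.37) kept their size and were not called. For SRM the difference was 0.11 (95% interval -0.07 to 0.30) and for SMS -0.10 (95% interval -0.26 to 0.05), neither called. After rescaling, which called 50.1% of genes, SRM differed by 0.40 (limma adjusted p = 0.0147) and OAZ1 by 0.50 (0.00739). OAZ2 differed by -0.23 and was not called, but was called at -0.41 in the libraries of high median and at -0.35 without CT56. Over all genes, the called differences counted 1993 higher and 5666 lower. Rescaling made these 3801 and 3655, and the covariate 3780 and 3227.

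The lines also differed with N-MYC-ER left inactive. Between the MYC-OFF groups 5 of the 10 genes were called, against 78.6% of 14926 genes. AMD1 was lower in SKNAS than in SHEP, by -1.18 (SE 0.10, adjusted p = 1.73e-12 by limma), and the ranges of 11.98 to 42.0 and 53.4 to 75.7 TPM did not overlap, as was found for 30.8% of genes. The catabolic genes SAT1 and PAOX were higher in SKNAS, SAT1 by 1.25 (SE 0.11, limma adjusted p = 7.85e-12). For PAOX the gap was 2.27 (SE 0.08), with a mean of 0.2196 TPM in SHEP and 4.968 TPM in SKNAS. It passed the filter of this fit only through SKNAS, so its call, 1 of the 5, does not test the gap. In MYC-ON too it passed only through SKNAS. The SAT1 ranges did not overlap between the lines either. SRM and SMS were higher by 0.35 (adjusted p = 3.51e-06 by limma) and 0.22 (adjusted p = 0.0018). The difference of ODC1 was -0.11 (95% interval -0.24 to 0.02, limma adjusted p = 0.1) and was not called. In MYC-ON 9 of 10 were called, against 84.4% of 14620 genes: the gap of SAT1 was 0.29, that of AMD1 -1.65, and ODC1 was lower in SKNAS by -0.63 (SE 0.08, limma adjusted p = 6.97e-09). After rescaling (84.5% of genes called) ODC1 differed by -0.12 and was not called, and SAT1 by 0.76. With SKNAS held to its libraries of high median (71.1% called) ODC1 differed by -0.32 and AMD1 by -0.89. AZIN1 differed by -0.95 over all libraries and by 0.33, with a call the other way, in those.

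The time courses asked how the levels moved between CT24 and CT76. In SHEP MYC-ON the synthesis genes ODC1, SRM and AMD1 fell and SAT1 rose. Each trend is the slope of log2(TPM + 1) per 24 h, fitted with an intercept for each series and called at an adjusted p of at most 0.05. All 9 genes tested were called in SHEP MYC-ON, against 60.3% of 14362 genes (21.3% rising, 39.0% falling). The calls of SMS (-0.11) and SMOX (0.12) each rested on 1 series, with a slope of 0.01 for SMS in series 2 alone and 0.01 for SMOX in series 1 alone, and SMS was not called after rescaling (-0.05), nor SMOX without the 3 libraries that stood apart (0.09). In MYC-OFF 2 of 9 were called, ODC1 at -0.14 (limma adjusted p = 0.00546) and SMS at -0.10 (limma adjusted p = 0.0336), against 11.8% of genes, and neither was called without series 1.

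ODC1 in MYC-ON went from 701.5 TPM at CT24 to 314.7 at CT76 in series 1 and from 614.5 to 409.2 in series 2. In MYC-OFF it went from 156.6 to 106.4 and from 150.5 to 111.4. The MYC-ON slope was -0.34 per 24 h (SE 0.04, limma adjusted p = 3.59e-12), and it was steeper than in MYC-OFF by -0.20 (SE 0.05, limma adjusted p = 0.000726). That difference was -0.12 and not called in series 2 alone. ODC1 thus stayed above MYC-OFF throughout, by 2.36 at CT24 and 1.95 at CT72 on the log2 scale in a fit with time as a straight line, a setting chosen after seeing the data.

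SRM fell from 476.9 to 278.1 TPM in MYC-ON series 1 and from 377.9 to 315.6 TPM in series 2, while MYC-OFF went from 283.8 to 263.7 and from 241.0 to 239.4 TPM. The slope was -0.33 in MYC-ON (SE 0.03, limma adjusted p = 1.73e-16), and differed from MYC-OFF by -0.30 (SE 0.04, limma adjusted p = 1.32e-09), with a call in each series alone. AMD1 fell from 108.9 to 51.9 and from 85.9 to 47.4 TPM in MYC-ON and began and ended near 61 TPM in MYC-OFF, at 60.5 and 61.6 TPM in series 1 and 65.4 and 60.7 TPM in series 2. At CT76 AMD1 was lower in MYC-ON than in MYC-OFF in both series. Its slopes differed by -0.30 (SE 0.06, limma adjusted p = 2.34e-05), which was -0.20 and not called in series 2 alone. In the straight-line fit the MYC effect on AMD1 was 0.64 at CT24 and 0.05 at CT72 (limma adjusted p = 0.535). SMS had slopes of -0.11 in MYC-ON and -0.10 in MYC-OFF, whose difference was -0.003 (limma adjusted p = 0.967).

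SAT1 moved the other way and crossed over. In MYC-ON it climbed from 5.98 TPM at CT24 to 16.3 at CT76 in series 1 and from 6.90 to 16.7 in series 2. From CT24 to CT36 the 8 MYC-ON libraries of both series were at 5.98 to 8.25 TPM against 7.28 to 10.9 TPM in MYC-OFF, and from CT64 to CT76 they were at 12.3 to 17.6 TPM against 5.04 to 10.7 TPM, with no overlap in the late window, as was found for 33.9% of genes. The slope was 0.61 in MYC-ON (SE 0.05, limma adjusted p = 3.65e-15) and -0.14 in MYC-OFF (limma adjusted p = 0.0726). The slopes differed by 0.75 (SE 0.07, limma adjusted p = 3.34e-12), against 43.4% of 14362 genes with a called difference, and by 0.68 and 0.82 in series 1 and series 2 alone. Read at CT24 the MYC effect on SAT1 was -0.62 (limma adjusted p = 1.22e-06, with 60.6% of genes called), and read at CT72 it was 0.87 (limma adjusted p = 5.55e-12, with 70.3% called). The effect of 0.19 averaged over time stands between these. The early sign is that of SKNAS, where SAT1 was lower in MYC-ON.

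**Figure D4:**
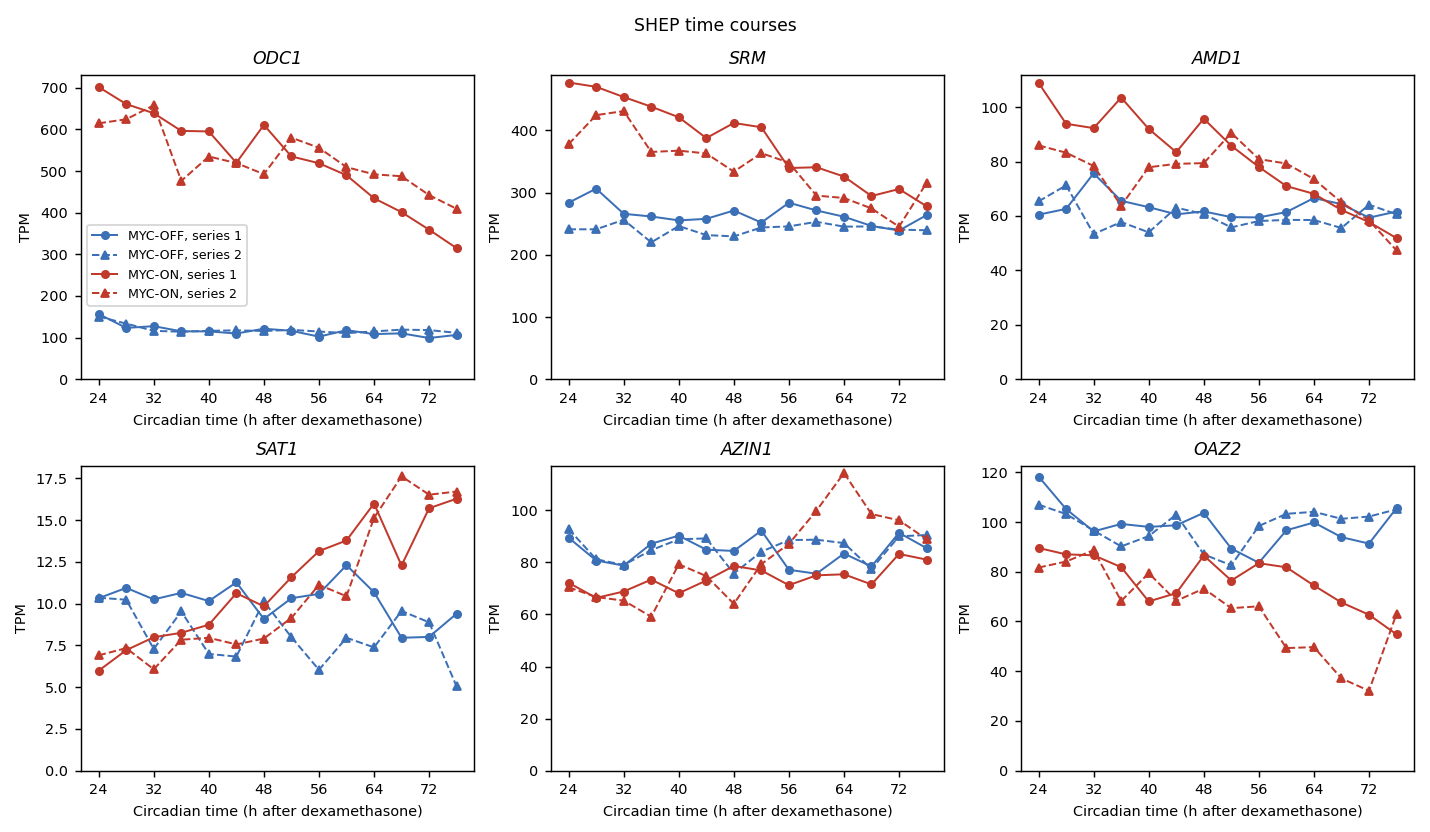
TPM (y axis, from 0) against circadian time in h after dexamethasone (x axis) for 6 polyamine genes in SHEP, with 1 line per series and condition. ODC1, SRM and AMD1 fall in MYC-ON, AMD1 to below MYC-OFF at CT76, and SAT1 starts below MYC-OFF and ends above it in both series.

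The regulators also drifted in MYC-ON. OAZ2 fell from 89.6 to 54.8 TPM in series 1, and in series 2 from 81.7 TPM to 32.1 at CT72 and 63.0 at CT76. Its slope differed from MYC-OFF by -0.33 (SE 0.07, limma adjusted p = 0.000135), and by -0.22 without the 3 libraries that stood apart, in which it was at 32.1 to 49.7 TPM. OAZ1 slopes differed by -0.18 (SE 0.04, limma adjusted p = 0.00072). For AZIN1 the difference was 0.21 (SE 0.05), with a limma adjusted p of 0.000763. AZIN1 in series 2 reached 114.4 TPM at CT64, 1 of those 3 libraries, and did not exceed 83.3 TPM in series 1. In series 1 alone the differences of OAZ2 (-0.14), OAZ1 (-0.09) and AZIN1 (0.11) were not called, so 4 of 9 genes were called there, against 30.8% of all genes, and 7 of 9 over both series. SMOX slopes differed by 0.04 (limma adjusted p = 0.63). In SKNAS 0 of 10 genes had a trend called by limma in MYC-OFF, in MYC-ON or in their difference (0.194%, 0.18% and 0.0864% of genes), and 3, 2 and 0 genes had an unadjusted p under 0.05. The SKNAS slopes of ODC1 were -0.40 (SE 0.12) in MYC-OFF and -0.25 (SE 0.14) in MYC-ON, and those of SAT1 0.32 (SE 0.11) and 0.34 (SE 0.12). The median slopes of all genes tested were -0.306 and -0.199 there, and 0.00167 and -0.00283 after rescaling, so the ODC1 slopes depend on the scaling.

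A 24 h rhythm was tested by limma with a cosine and a sine term beside the linear trend. None of the polyamine genes was called rhythmic in any of the 4 groups. The rhythm differed between conditions for 0 of them, as for 0 of 14362 genes in SHEP and 0 of 13886 in SKNAS. Of all genes in SHEP, the rhythm was called for 0.132% in MYC-OFF and for 0.111% in MYC-ON. In each SKNAS group it was called for 0 of 13886. At an unadjusted p under 0.05 stood SMOX (amplitude 0.11 on the log2 scale, unadjusted p = 0.0154, limma adjusted p = 0.249) and SRM (0.06, unadjusted p = 0.0394, limma adjusted p = 0.332) in SHEP MYC-ON and, for the difference in SHEP, SMOX, with none in the other groups. On the log2 scale the fitted amplitudes reached at most 0.11 in SHEP groups and 0.32 in those of SKNAS.

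Genes that supply, salvage, carry or use polyamines were read beside these, in a wider list of 37. In SHEP 29 passed the filter and 14 were called higher and 11 lower, against 71.9% of all genes called (33.0% higher, 38.9% lower). In SKNAS 29 passed and 5 were called higher and 9 lower, against 48.1% (13.9% higher, 34.2% lower), and 13 higher and 6 lower after rescaling, against 51.5%. With the library median as covariate 11 were called higher and 7 lower, against 54.2%. The set counts and single changes that follow come from the fit without rescaling or covariate. Whether their SKNAS directions hold under the other fits is not shown. Among the users of spermidine, EIF5A, the translation factor that carries the spermidine-derived residue hypusine, was higher by 0.84 in SHEP and 0.81 in SKNAS, and DOHH, which completes hypusine, by 0.45 and 0.99. DHPS, which starts that reaction, was lower by -0.44 and -0.30. Of the 7 genes of methionine salvage and cycle, 4 were called higher and 2 lower in SHEP and 2 higher in SKNAS. APIP rose by 0.71 and 0.80 in the lines, and AHCY, which clears S-adenosylhomocysteine, by 0.78 in SHEP with 0.39 (limma adjusted p = 0.0626) in SKNAS. MTR, the methionine synthase, was lower by -0.48 in SHEP.

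Among supply genes, 5 were called higher and 2 lower of 8 tested in SHEP and 0 higher and 3 lower of 8 in SKNAS. The arginase gene ARG2, whose enzyme makes ornithine, was higher by 0.77 in SHEP and lower by -1.14 in SKNAS, and the difference of -1.92 was called (SE 0.15, limma adjusted p = 3.87e-16). MAT1A had the largest called rise of that set in SHEP, at 1.2, and ASL the largest fall, at -0.42. Of 7 transport genes tested, 2 were called higher and 4 lower in SHEP and 1 higher and 4 lower in SKNAS. SLC3A2, a subunit of amino acid exchangers, was higher by 1.00 and 0.97, SLC18B1, a vesicular polyamine carrier, by 1.05 in SHEP, and the lysosomal polyamine exporter ATP13A2 was lower by -1.27 in SHEP. The caveolin CAV1 was lower by -1.72 in SKNAS. AZIN2, an antizyme inhibitor like AZIN1, was lower by -1.39 in SHEP and -0.54 in SKNAS, and OAZ3 was higher by 0.35 in SHEP, where 1 of the 3 tested genes of that set was called higher and 2 lower. In SKNAS 0 of those 3 were called higher and 1 lower, and of the 4 hypusine genes 2 were called higher and 1 lower in each line.

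**Figure D5:**
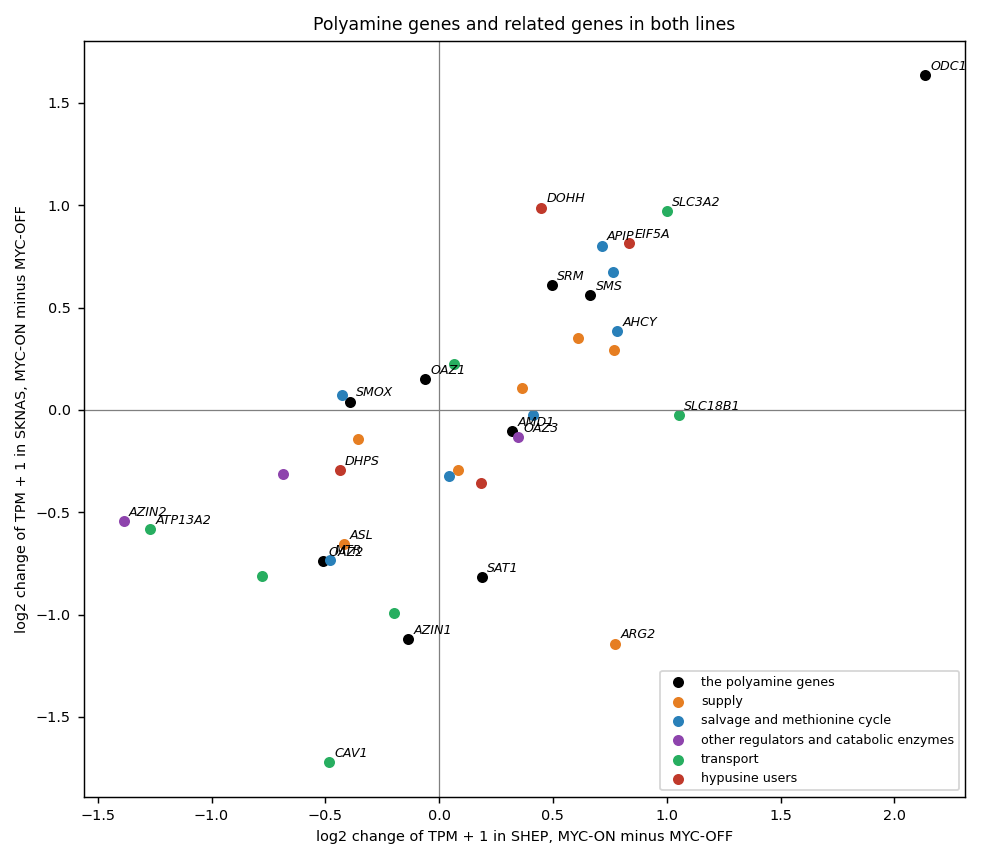
log2 change of TPM + 1 from MYC-OFF to MYC-ON in SHEP (x axis) against SKNAS (y axis) for 37 genes tested in both lines, 9 of the polyamine genes and 28 related ones, coloured by set. ODC1 lies farthest to the upper right, EIF5A, SLC3A2, APIP, SRM and SMS are raised in both lines, and ARG2 lies at 0.77 and -1.14.

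The genes whose pattern was most like that of ODC1, SRM and SAT1 were found by the root mean square difference of z-scored log2(TPM + 1) over the 56 SHEP libraries, where 0 is an identical pattern. They are a description, since all genes share these libraries. For ODC1 they were EBNA1BP2 (0.119), PES1 (0.133) and SLC25A33 (0.138), with a median of 1.44 over all genes. For SRM they were IMP3 (0.269), EIF5A (0.277) and COASY (0.279). For SAT1 the nearest genes lay farther off, IL32 at 0.553, LINC02154 at 0.607 and GAS5 at 0.617. Pseudogene copies of ODC1, AMD1, SRM and OAZ1 were listed at no more than 1.03 TPM in any library. The antisense gene AZIN1-AS1 had a mean of 5.58 TPM, and the strand setting of the quantification is not given in the sources used here, so reads of AZIN1 and its antisense partner may not have been told apart.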

How the data were processed

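RNA-seq of polyadenylated RNA was analysed in 83 libraries, grouped by the labels into 28 MYC-OFF and 28 MYC-ON libraries of SHEP, and 14 and 13 of SKNAS. The authors quantified reads with Salmon (version 1.3.0 in the submitters' processing notes) and collapsed transcripts to genes with Tximport on GRCh38. The deposited values are TPM, 1 per gene and library, for 60237 genes. TPM keep no read depth, so precision rests on the spread between libraries, and the study's count model was replaced by limma 3.58.1 (R 4.3.3) on log2(TPM + 1).

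Genes with a mean of at least 1 TPM over a fit's libraries were tested, and p-values were adjusted over all of them. Levels were compared per line with CT as a factor. The line difference was an interaction term, and lines were also compared within each condition. Trends and 24 h rhythms were fitted with an intercept per condition and, in SHEP, per series. The p-values treat the time points as replicates, although those of a series share an experiment, of which SHEP has 2 and SKNAS 1. The members, lists and tests were chosen with earlier results of these data known. Named genes are the 10 members, MYCN, the called gene with the largest change either way of each related set in each line, and the 3 genes most like ODC1, SRM and SAT1. EIF5A, DOHH, APIP, AHCY, ARG2 and SLC3A2 are also given in the line where they are not the largest, a choice made after their values were seen.

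In SHEP the series numbers pair the samples, as replicate experiments in the labels: over 14362 genes the difference between series 1 and series 2 correlated between MYC-OFF and MYC-ON (r = 0.489, across genes, which are not independent). Alternatives were a pseudocount of 0.1, no filter, median-of-ratios rescaling, the library median as covariate, SKNAS libraries with a median of at least 3.8 only, the replicate block added or removed, series means, either SHEP series left out, and periods of 20 and 28 h. Leaving out the 3 SHEP libraries with the most genes above 0 TPM, leaving out the SKNAS library with the fewest, and reading the SHEP effect at CT24 and CT72 from straight lines, were added after seeing the data. The fits were also run on simulated data with known changes and independent noise in every library. Those data held no series effect and no shift of library medians, so they do not test the p-values against either. Gene positions are from Gencode 44 (GRCh38). The level of 1 adrenergic marker is not reported here.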

Additional observations from a re-analysis of the deposited data

Results flagged for a closer look

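The MYC effect differed between the lines, SKNAS minus SHEP on the log2 scale, for 6 of the 10 polyamine genes by the interaction test (limma adjusted p at most 0.05). That share is near the 51.5% of all genes called, whose median difference was -0.22. These were SAT1 (-1.01), AZIN1 (-0.984), ODC1 (-0.499), SMOX (0.431), AMD1 (-0.424) and PAOX (-0.356). For SAT1 the SHEP effect changed sign over time, and the value rests on its average. The AMD1 difference was -0.15 after rescaling and -0.103 with the library median as covariate, neither called, and 0.13 in the SKNAS libraries of high median, where that of SMOX was 0.13 and not called either. PAOX passed the filter only through SKNAS, since its SHEP values were all under 1 TPM, so its call does not test the difference. With a pseudocount of 0.1 that difference was 0.308.

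The time trend in SHEP differed between MYC-ON and MYC-OFF, as a difference of log2 slopes per 24 h, for 7 genes, against 43.4% of all genes. SAT1 rose against MYC-OFF by 0.748 and AZIN1 by 0.205. OAZ2 (-0.334), AMD1 (-0.296), SRM (-0.295), ODC1 (-0.205) and OAZ1 (-0.183) fell against it. SAT1 and SRM were called in each series alone.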

How the results depend on the processing

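TPM hold no read depth, so the limits here come from the spread between libraries, from 1 SKNAS experiment per condition and from the unequal SKNAS library medians. Single values were followed for the genes reported above. For line gaps within a condition, SHEP MYC-OFF trends and SKNAS trends this leaves genes out, and rhythms are not among them. Of 476 such values under an alternative, 411 stayed on their side of the thresholds with their direction. With their direction kept, 26 lost a call and 11 gained one. The other 28 changed sign, of which 5 gained a call, 3 lost one and 1 was called both ways. The cause of these changes was not tested. For ODC1, SRM, SMS and OAZ2, the direction and the call of the change from MYC-OFF to MYC-ON held in each line under every alternative, except that OAZ2 in SHEP read at CT24 was not called.

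In SHEP, SAT1 took the other sign with the library median as covariate (-0.0488) and when read at CT24 (-0.623), as did OAZ1 at CT24 (0.136) and AZIN1 at CT72 (0.0506). In SKNAS, AMD1 took it after median-of-ratios rescaling (0.257), with the covariate (0.265) and in the libraries of high median (0.449). SMOX did with the covariate (-0.236) and in the libraries of high median (-0.261), and so did OAZ1 (-0.0341 and -0.142). For the line difference of the effect, rescaling gave 0.18 for SMS and 0.0471 for OAZ2, the covariate 0.0687 for OAZ2, a pseudocount of 0.1 gave 0.308 for PAOX, and the libraries of high median gave 0.13 for AMD1, -0.00591 for SRM, 0.0481 for SMS and -0.0797 for OAZ1.

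Between the MYC-OFF groups ODC1 turned to 0.0624 after rescaling and 0.0166 in the libraries of high median. In those libraries 8 of 10 genes were called in place of 5, against 82.6% of all genes in place of 78.6%. Between the MYC-ON groups AZIN1 turned to 0.325 in those libraries. After rescaling, the slope of ODC1 in SKNAS MYC-ON was 0.00218 and the slope difference of SMS in SHEP 0.0357. The 2 genes called for a trend in SHEP MYC-OFF became 1 without a filter and 1 after rescaling, and 0 to 3 when either series was left out. The share of all genes called, 11.8%, became 3.76% without a filter and 11.4% after rescaling. It was 0.995% without series 1 and 14.4% without series 2.

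Leaving out either SHEP series left 3 to 4 genes called for the line difference in place of 6, and 4 to 5 for the slope difference in place of 7. The shares of all genes called fell too. For the line difference they went from 51.5% to 31.9% without series 1 and 31% without series 2. For the slope difference they went from 43.4% to 32% and 30.8%. Leaving out either series gave -0.125 to 0.00073 for the OAZ1 effect in SHEP, -0.223 to 0.00883 for the SMS slope in SHEP MYC-ON, and -0.0464 to 0.0405 for SMS and -0.0621 to 0.147 for SMOX as slope differences. The replicate block, with the SHEP series as a factor, changed the call of 1 value, the line difference of OAZ1 (0.212, limma adjusted p = 0.0285 with the block against 0.0584), and no other call. Series means as replicates, with the block, gave the same calls in SHEP. Periods of 20 and 28 h called 0 of the polyamine genes rhythmic. Over all genes tested, the 20 h period called 0 in every group, and the 28 h period 0 in SKNAS. The SHEP shares at 28 h were 0.139% with vehicle and 0.104% with 4OHT. With calls this rare, the 0 does not set the polyamine genes apart from other genes.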
